A study of Rattus norvegicus with 19 samples.

Results

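A father's high-fat diet was compared with a chow diet for its mark on the RNA of the daughters' brains, averaged over fathers with and without stress in early life. The difference is the mean of HFD minus control and ELS-HFD minus ELS, so each kind of paternal early life has equal weight. It uses all 19 libraries of the series, 9 with paternal HFD and 10 without. The HFD group held 4 daughters of fathers on the high-fat diet, and the control group held 5 daughters of fathers with neither exposure. The ELS-HFD group held 5 daughters of fathers with early life stress and the high-fat diet, and the ELS group held 5 daughters of fathers with early life stress alone. Early life stress is described in the series text as separation from the mother. All daughters were Wistar rats that ate chow themselves and went through an elevated plus maze, an anxiety test, on postnatal day 57 ± 1. By the sample labels the material was a whole tissue lysate of brain from females; the text of the series names the amygdala and speaks of male rats. The labels name no father, litter, batch or date, so daughters within a group may share a father.

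The amygdala is a group of nuclei in the temporal part of the brain that assigns threat and reward value to stimuli and drives fear and anxiety behaviour. Effects of a father's diet or stress on offspring are thought to be carried in part by the sperm, through DNA methylation and small RNAs. In libraries enriched for polyadenylated RNA a small number of transcripts usually takes a large part of the reads, and in brain those of the mitochondrial genome are commonly among them. The count table lists Ensembl gene IDs with no names, and 0 of its 32883 IDs found a symbol in the RefSeq table. Which of the abundant IDs are mitochondrial, neuronal or glial is therefore not stated, and neither the tissue nor any cell type could be checked against its markers. All 27 lists of markers and pathways drawn up for the comparison need symbols and gave no value. Abundance below is by CPM (counts scaled to a common library size after TMM adjustment), and is not corrected for gene length.

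Library totals ran from 7034837 to 20266594 counts. HFD replicate 1 stood apart from every other library: 25.8% of its counts fell on its 10 most abundant IDs, where the other 18 libraries had 9.0% to 16.7%. Its TMM factor was 0.772, against 0.984 to 1.07 in the others. The main results below are therefore given with and without this library.

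Paternal HFD went with a larger share of counts in a few IDs. The 10 most abundant IDs of each library took 25.8%, 12.6%, 13.4% and 12.9% of the counts in the 4 HFD libraries, against 11.6%, 10.9%, 12.4%, 12.3% and 12.6% in the 5 control libraries. HFD replicate 1 was far above the rest, and the other HFD libraries lay at the top of the control range or just above it. In the ELS-HFD libraries the shares were 13.9%, 14.8%, 16.7%, 11.8% and 10.7%, against 11.5%, 11.9%, 10.8%, 10.9% and 9.0% in the ELS libraries. ELS-HFD replicates 1, 2 and 3 were above every ELS library, and replicates 4 and 5 were within the ELS range.

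Averaged over early life the share was 3.49 ± 1.73 percentage points higher with paternal HFD (SE), by an exact permutation test within each kind of early life (two-sided p = 0.00167, adjusted p = 0.0232 over 16 tests of whole-library measures). Without HFD replicate 1 the difference was 1.87 ± 0.625 points (exact permutation p = 0.00702, adjusted p = 0.0958). The part from HFD against control was 4.21 points with that library (exact permutation p = 0.0159, adjusted p = 0.0635). It was 0.985 points without it (exact permutation p = 0.107, adjusted p = 0.245). The part from ELS-HFD against ELS was 2.76 points (exact permutation p = 0.0714, adjusted p = 0.143 with all libraries). Neither part passed after adjustment. The parts did not differ detectably from each other, with an adjusted exact permutation p of 0.965 with HFD replicate 1 and 0.395 without it.

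**Figure D1:**
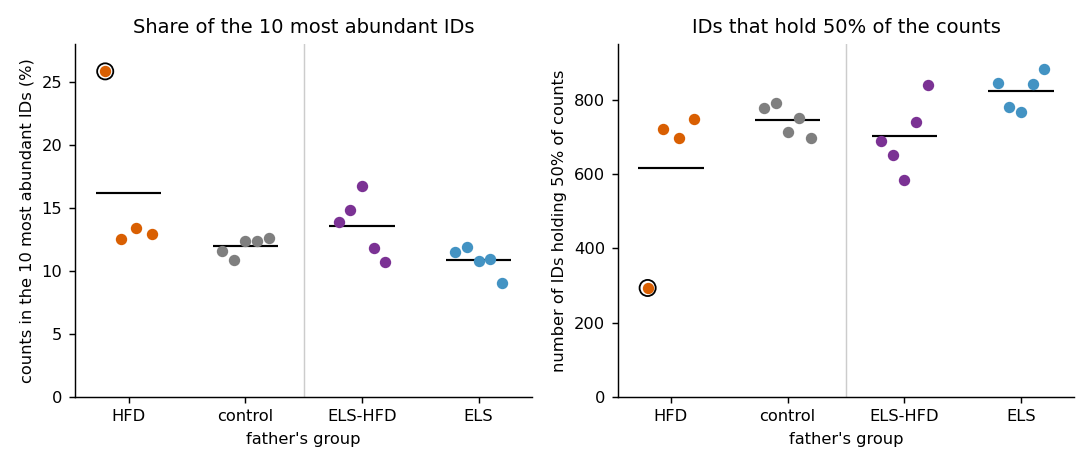
Each point is 1 library; the left panel gives the share of counts in its 10 most abundant IDs (%) and the right panel the number of IDs that together hold 50% of its counts, by the father's group. Bars are group means and the ringed point is HFD replicate 1, which lies at 25.8% and at 293 IDs.

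The same shift was also read in a fixed set of IDs and in the evenness of the libraries. Both measures draw largely on the counts of the same abundant IDs as the share above. They therefore restate that shift in other terms and are not independent evidence for it. The 50 IDs with the highest mean CPM over all libraries took 20.5% to 34.0% of the counts in HFD libraries and 18.8% to 20.7% in control libraries. They took 18.1% to 24.7% in ELS-HFD libraries and 16.3% to 19.7% in ELS libraries. The averaged difference was 3.62 ± 1.77 points (SE, exact permutation p = 0.0029, adjusted p = 0.0232), and 1.98 ± 0.682 points without HFD replicate 1 (exact permutation p = 0.012, adjusted p = 0.0958). The number of IDs needed to hold 50% of the counts was 293 in HFD replicate 1 and 698 to 748 in the other HFD libraries, against 696 to 792 in control libraries. It was 585 to 840 in ELS-HFD libraries, against 768 to 883 in ELS libraries. The averaged difference was -127 ± 59.7 IDs (SE, exact permutation p = 0.00627, adjusted p = 0.0334), and -73.3 ± 26.8 IDs when HFD replicate 1 was left out (exact permutation p = 0.022, adjusted p = 0.117). The number of IDs detected at an equal depth of 7034837 counts was 17346 ± 410 in HFD and 17574 ± 266 in control libraries, and 17480 ± 226 in ELS-HFD and 17674 ± 416 in ELS libraries (SD, n = 4 in HFD and n = 5 in the others). Its averaged difference of -211 ± 159 IDs (SE) did not pass the test (exact permutation p = 0.175); it was -140 IDs without HFD replicate 1 (exact permutation p = 0.354) and -304 IDs without HFD replicate 4 (exact permutation p = 0.0486, not adjusted).

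The higher share of the 20 most abundant IDs stood beside lower shares of IDs of middle and low abundance. The 20 IDs took 19.3% ± 6.83 of the counts in HFD libraries and 14.9% ± 0.77 in control libraries, and 16.5% ± 2.65 in ELS-HFD libraries and 13.5% ± 1.31 in ELS libraries (SD). Their share was 3.68 ± 1.84 points higher with paternal HFD (SE), and 1.98 ± 0.697 points higher without HFD replicate 1. The IDs of rank 21 to 100 differed by -0.0386 ± 0.186 points. The difference was -1.10 ± 0.585 points at ranks 101 to 1000, -1.75 ± 0.83 points at ranks 1001 to 5000 and -0.785 ± 0.404 points at ranks 5001 to 15372 (SE). With HFD replicate 1 left out, these were -0.57, -0.983 and -0.499 points. Shares of 1 library add up to a fixed total, so a gain in some classes has to be met by a loss in others. These class shares are a description and were not tested.

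After TMM scaling the difference was also concentrated at the top of the abundance order. The 20 most abundant IDs, at 2521 to 29823 CPM on average, had a median log2 fold change of 0.44 with all libraries and 0.22 without HFD replicate 1. The median over all 15372 IDs tested was -0.0019 on the same scale. TMM scaling holds the bulk of IDs near a fold change of 0, so medians near 0 follow in part from the scaling. With library totals alone the median was 0.33 for the 20 IDs and -0.072 over all IDs tested. IDs of rank 21 to 50 had a median of 0.06 and those of rank 51 to 100 a median of 0.11. In the 6 classes below rank 100 the median lay between -0.02 and 0.02, in which the middle 50% of IDs reached from -0.12 to 0.16 at ranks 101 to 500 and from -0.29 to 0.21 at ranks 10001 to 15372. At ranks 5001 to 10000, for example, 752 IDs were higher and 559 lower at an unadjusted p under 0.05 in edgeR. Together they were 26.2% of that class, near the 24.3% of all IDs tested (14.1% higher and 10.2% lower). Such counts were therefore not particular to the class, and none of these IDs passed after adjustment. IDs at that level lay on both sides of a median near 0.

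**Figure D2:**
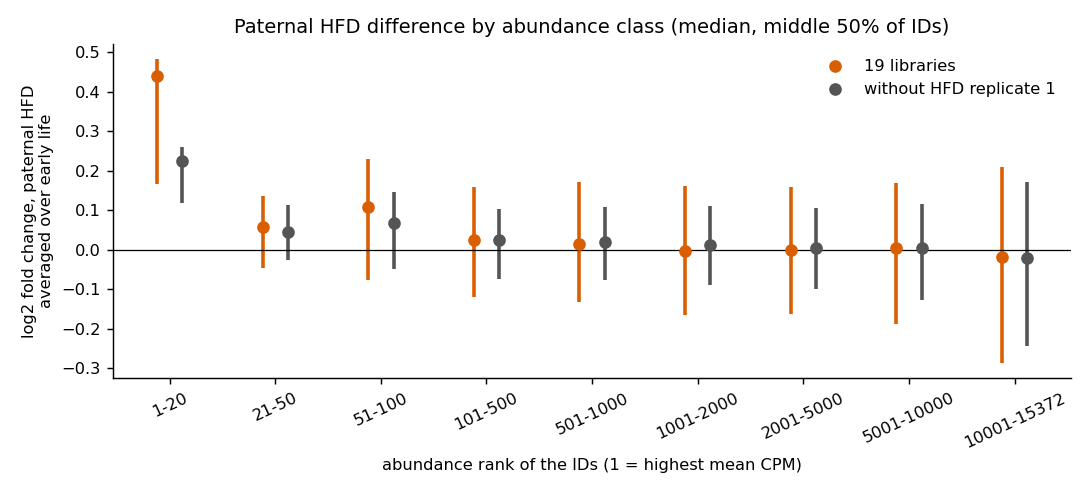
Log2 fold change for paternal HFD averaged over early life (y axis) by abundance rank of the IDs (x axis); points are medians and lines the middle 50% of IDs, with all 19 libraries in orange and without HFD replicate 1 in grey. The class of rank 1 to 20 has a median of 0.44, and of 0.22 without that library, while classes below rank 100 lie near 0.

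Of the 20 most abundant IDs, 18 had a positive and 2 a negative fold change. At an unadjusted p under 0.05 edgeR's quasi-likelihood test had 14 of the 20 higher and 1 lower with paternal HFD, where 14.1% of all IDs tested were higher and 10.2% lower at that level. No one of the 20 passed at an adjusted p of 0.05. In the 18 libraries without HFD replicate 1, 6 of the 20 were higher and 0 lower at an unadjusted p under 0.05, where 8.55% of all IDs were higher and 7.42% lower. The 20 IDs share libraries and scaling and vary together, so they are not 20 independent observations. Across the 19 libraries, with group means subtracted, 11 of the other 19 IDs followed the most abundant one at r over 0.8, and 3 did so without HFD replicate 1. Over all 15371 other IDs tested, 1295 followed it at r over 0.8 and 1354 ran against it at r under -0.8, and 96 and 47 did so without HFD replicate 1. Of the 20 IDs, 17 had their highest level of all in HFD replicate 1. Ranking by the median in place of the mean kept 19 of the 20.

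The most abundant ID shows the pattern by library. It stood at 76474, 29457, 32172 and 27361 CPM in the HFD libraries, against 24907, 23000, 28890, 26261 and 27724 CPM in the control libraries. It stood at 32866, 31106, 35002, 27243 and 24199 CPM in the ELS-HFD libraries, against 22366, 28576, 25654, 21603 and 21783 CPM in the ELS libraries. HFD replicate 1 was the one library far from the rest, the other HFD libraries overlapped control at its upper end, and ELS-HFD replicates 1, 2 and 3 lay above all ELS libraries. Its log2 fold change averaged over early life was 0.49 ± 0.16 (SE, edgeR, unadjusted p = 0.00552, adjusted p = 0.147). Without HFD replicate 1 it was 0.26 ± 0.09 (SE, unadjusted p = 0.00639, adjusted p = 0.202).

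The ID of rank 2 was at 42881, 16114, 18981 and 15234 CPM in the HFD libraries, against 15758, 14181, 14791, 16952 and 16789 CPM in the control libraries. Without HFD replicate 1 the HFD and control values of this ID overlapped widely, and its log2 fold change averaged over early life was 0.25 ± 0.09 (SE), against 0.48 ± 0.16 with that library. In the ELS-HFD libraries it was at 19583, 18766, 22142, 16220 and 13241 CPM, against 13561, 15062, 14427, 14342 and 11382 CPM in the ELS libraries. Here 4 of the 5 ELS-HFD libraries were above all 5 ELS libraries. The IDs of rank 4 and 5 had the largest fold changes of the 20, at 0.58 ± 0.19 each, and stood at 0.30 ± 0.11 and 0.31 ± 0.13 without HFD replicate 1 (SE, log2).

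Not every abundant ID was higher. The ID of rank 16 was at 1998, 3046, 2439 and 2373 CPM in the HFD libraries, against 2967, 2896, 2827, 2796 and 2510 CPM in the control libraries. It was at 2825, 2227, 2125, 3072 and 2827 CPM in the ELS-HFD libraries, against 3068, 2992, 3485, 2968 and 2789 CPM in the ELS libraries. It was below all control libraries in HFD replicates 1, 3 and 4 and below all ELS libraries in ELS-HFD replicates 2 and 3, and the other libraries with paternal HFD reached into or above those ranges. Its log2 fold change was -0.21 ± 0.09 (SE, edgeR unadjusted p = 0.028, adjusted p = 0.173), and -0.15 ± 0.08 without HFD replicate 1. The IDs of rank 14, 17, 18 and 19 had fold changes between -0.02 and 0.14, each smaller than its SE. For the ID of rank 18 the average combined -0.20 ± 0.09 for HFD against control with 0.17 ± 0.08 for ELS-HFD against ELS (SE, log2). The test of that difference gave an edgeR unadjusted p of 0.00519 and did not pass after adjustment. The ID of rank 20 was at 5781 CPM in HFD replicate 1 and 4523 CPM in ELS-HFD replicate 5, and at 1694 to 2940 CPM in the other 17 libraries, with a log2 fold change of 0.52 ± 0.19 with all libraries and 0.27 ± 0.13 without HFD replicate 1 (SE). Unlike the leading IDs it was highest, among ELS-HFD libraries, in replicate 5.

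**Figure D3:**
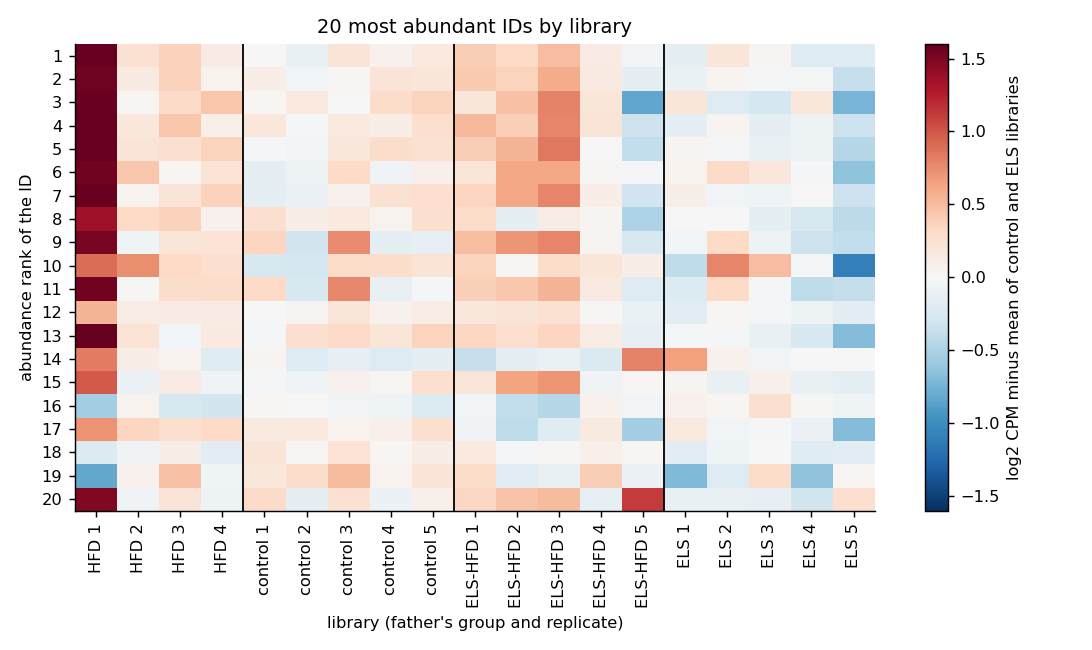
The 20 most abundant IDs (rows, by rank) in the 19 libraries (columns, by the father's group and replicate); colour is log2 CPM minus the mean of the control and ELS libraries, red for higher and blue for lower. HFD replicate 1 is red in nearly all rows, ELS-HFD replicates 1 to 3 are paler red in the upper rows, and the row of rank 16 is blue in HFD replicates 1, 3 and 4 and in ELS-HFD replicates 2 and 3.

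The size of the difference was also read within each kind of paternal early life. With all libraries the 20 most abundant IDs had a median log2 fold change of 0.47 for HFD against control and 0.35 for ELS-HFD against ELS. Without that library the medians were 0.09 for HFD against control and 0.37 for ELS-HFD against ELS. The difference between these medians was not tested. Leaving out ELS-HFD replicates 2 and 3 as well gave 0.09 for HFD against control and 0.15 for ELS-HFD against ELS. In the average 19 of the 20 IDs were positive, but only 1 had an edgeR unadjusted p under 0.05, against 15 with all libraries. Over all IDs tested, 1585 of 15470 were at that level in this smaller set of libraries. With all libraries 3739 of 15372 (24.3%) were. The 20 IDs vary together, so their signs are not independent. In those 16 libraries the share of the 10 most abundant IDs was 1.14 ± 0.565 points higher with paternal HFD (SE, exact permutation p = 0.0379, adjusted p = 0.429). Over all IDs tested, the log2 fold changes of HFD against control and ELS-HFD against ELS had the same sign in 69.1% of IDs with all libraries and in 45.3% without HFD replicate 1. Opposite signs were thus more common than the same sign once HFD replicate 1 was left out. Many IDs vary together across libraries, so these percentages are a description and were not tested. HFD against control and ELS-HFD against ELS share no library.

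**Figure D4:**
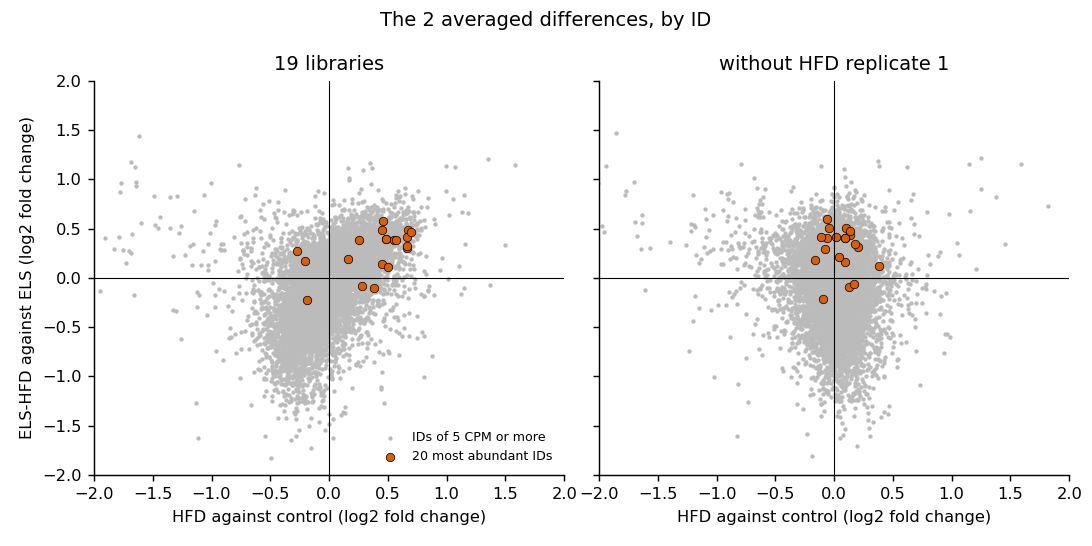
Log2 fold change of ELS-HFD against ELS (y axis) by that of HFD against control (x axis) for 11503 IDs of at least 5 CPM on average (grey) and the 20 most abundant IDs (orange), with all 19 libraries (left) and without HFD replicate 1 (right). The orange points centre on 0.47 of the x axis on the left and on 0.09 on the right; 31 IDs on the left and 40 on the right lie outside the axes.

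Across all IDs, many had a low unadjusted p and none passed the adjusted threshold. edgeR called 0 of 15372 IDs for paternal HFD averaged over early life at an adjusted p of 0.05, and the lowest adjusted p was 0.147. It had 3739 IDs (24.3%) with an unadjusted p below 0.05, of which 2174 were higher and 1565 lower. The balance of directions differed between fits. Of the IDs at that level 58.1% were higher in this fit, 60.4% with DESeq2 size factors and 58.9% with scaling that left out the 50 most abundant IDs. With library totals alone 40.0% were higher (1299 higher and 1945 lower), and with the limma-voom test 43.6% were (1756 higher and 2272 lower). limma-voom called 0 IDs, and DESeq2 called 329 of 15369, of which 243 were higher and 86 lower. The median absolute log2 fold change of the 329 was 0.45. None of the 20 most abundant IDs was among them. So small a part of all IDs was called that this says little about the 20. In a DESeq2 fit without HFD replicate 1, the calls numbered 183 IDs, 110 higher and 73 lower. The calls of both DESeq2 fits had 143 IDs in common, 43.5% of the 329 and 78.1% of the 183.

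edgeR again called 0 IDs once HFD replicate 1 was left out, and 2483 (16.0%) had an unadjusted p below 0.05, among them 1329 higher and 1154 lower. Every one of the 3739 IDs kept its sign without that library, 2313 kept an unadjusted p under 0.05, and the fold change was at a median 0.706 of its size. The other 8 libraries with paternal HFD also took part in choosing those IDs. In HFD against control no ID passed in edgeR (0 calls), 1198 (7.79%) had an unadjusted p below 0.05, and 587 (3.78%) did without HFD replicate 1. In ELS-HFD against ELS there were 0 calls and 3039 such IDs (19.8%). limma-voom called 0 IDs in both, and DESeq2 called 5 for HFD against control and 146 for ELS-HFD against ELS. Without HFD replicate 1, which is in neither group but shares the estimate of the spread, ELS-HFD against ELS had 2405 IDs called by edgeR (15.5%), and 5137 (33.0%) with an unadjusted p below 0.05. With ELS-HFD replicates 2 and 3 left out as well, it had 0 calls and 2901 IDs with an unadjusted p below 0.05. The test of whether these 2 differences differ gave 0 calls in edgeR and 788 IDs (5.13%) with an unadjusted p below 0.05, or 3135 (20.2%) without HFD replicate 1, while limma-voom called 0 and DESeq2 called 5. Complete separation was rare: 7 of 15372 IDs (0.0455%) had no overlap between HFD and control and none between ELS-HFD and ELS, in the same direction, 2 of them higher (0.0130%) and 5 lower (0.0325%). When HFD replicate 1 was left out, 2 were higher (0.0129%) and 3 lower (0.0193%) in that sense.

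Single IDs with the smallest p were spread over a wide range of abundance. Among IDs of at least 5 CPM whose 2 differences had the same sign, the 8 higher and the 8 lower IDs with the smallest p were taken. The 8 higher IDs had log2 fold changes of 0.38 to 1.28 and abundance ranks of 400 to 11285. The 8 lower IDs had log2 fold changes of -1.37 to -0.35 and ranks of 2429 to 10007. All 16 had an edgeR adjusted p of 0.147 and kept an unadjusted p under 0.05 without HFD replicate 1. The 8 higher IDs were at that level both in HFD against control and in ELS-HFD against ELS, while the 8 lower ones were in ELS-HFD against ELS and 3 of them in HFD against control. Over all IDs tested, 7.79% were at that level in HFD against control and 19.8% in ELS-HFD against ELS. The 16 IDs were picked by the p of the average of these differences, in the same libraries. Low p-values in the parts of that average, or without 1 library, follow in part from that choice. None of the 16 was among the 20 most abundant, but those 20 are a very small part of the 11503 IDs of at least 5 CPM on average.

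ENSRNOG00000029670 had the smallest p of the higher IDs. It was at 11.3, 7.63, 4.58 and 14.4 CPM in the HFD libraries, against 4.41, 2.50, 3.31, 5.40 and 2.82 CPM in the control libraries. In the ELS-HFD libraries it was at 12.4, 5.88, 5.63, 4.51 and 5.71 CPM, against 3.55, 3.44, 2.49, 2.50 and 2.82 CPM in the ELS libraries. All ELS-HFD libraries lay above all ELS libraries, and HFD replicate 3 lay within the control range. The log2 fold change of ENSRNOG00000029670 averaged over early life was 1.28 ± 0.23 (SE, edgeR adjusted p = 0.147), and 1.23 ± 0.23 without HFD replicate 1 (adjusted p = 0.183).

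ENSRNOG00000051483 was at 32.8, 18.3, 10.7 and 9.09 CPM in the HFD libraries, against 7.27, 5.88, 9.38, 8.70 and 8.85 CPM in the control libraries. In the ELS-HFD libraries it was at 12.1, 15.0, 11.5, 12.9 and 15.3 CPM, against 6.10, 7.44, 9.89, 6.42 and 7.41 CPM in the ELS libraries. HFD replicate 4 overlapped the control range, and the ELS-HFD and ELS libraries did not overlap. Its log2 fold change was 0.99 ± 0.19 (SE, edgeR adjusted p = 0.147), and 0.76 ± 0.14 without HFD replicate 1 (adjusted p = 0.183).

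ENSRNOG00000011058 had the smallest p of the lower IDs. It was at 54.1, 79.9, 51.4 and 78.1 CPM in the HFD libraries, against 72.7, 88.1, 63.4, 86.4 and 81.5 CPM in the control libraries. In the ELS-HFD libraries it was at 56.9, 60.3, 54.0, 70.8 and 79.1 CPM, against 112, 103, 94.2, 111 and 97.9 CPM in the ELS libraries. The separation was complete for ELS-HFD and ELS, with HFD replicates 2 and 4 inside the control range. The log2 fold change of ENSRNOG00000011058 was -0.47 ± 0.10 (SE, edgeR adjusted p = 0.147), made up of -0.25 ± 0.15 for HFD against control and -0.69 ± 0.14 for ELS-HFD against ELS. The test of that difference gave an edgeR unadjusted p of 0.0412 and an adjusted p of 0.969.

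ENSRNOG00000008970 was at 48.4, 63.8, 51.2 and 52.7 CPM in the HFD libraries, against 65.1, 84.0, 59.9, 64.1 and 61.3 CPM in the control libraries. In the ELS-HFD libraries it was at 56.9, 48.7, 48.1, 58.9 and 59.5 CPM, against 82.9, 67.7, 67.1, 91.2 and 69.3 CPM in the ELS libraries. One HFD library, replicate 2, reached into the control range, and no ELS-HFD library reached into the ELS range. Its log2 fold change was -0.39 ± 0.09 (SE, edgeR adjusted p = 0.147), and -0.36 ± 0.09 without HFD replicate 1 (adjusted p = 0.183). In bulk tissue, fewer cells of a type and less RNA per cell cannot be told apart for any of these IDs.

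**Figure D5:**
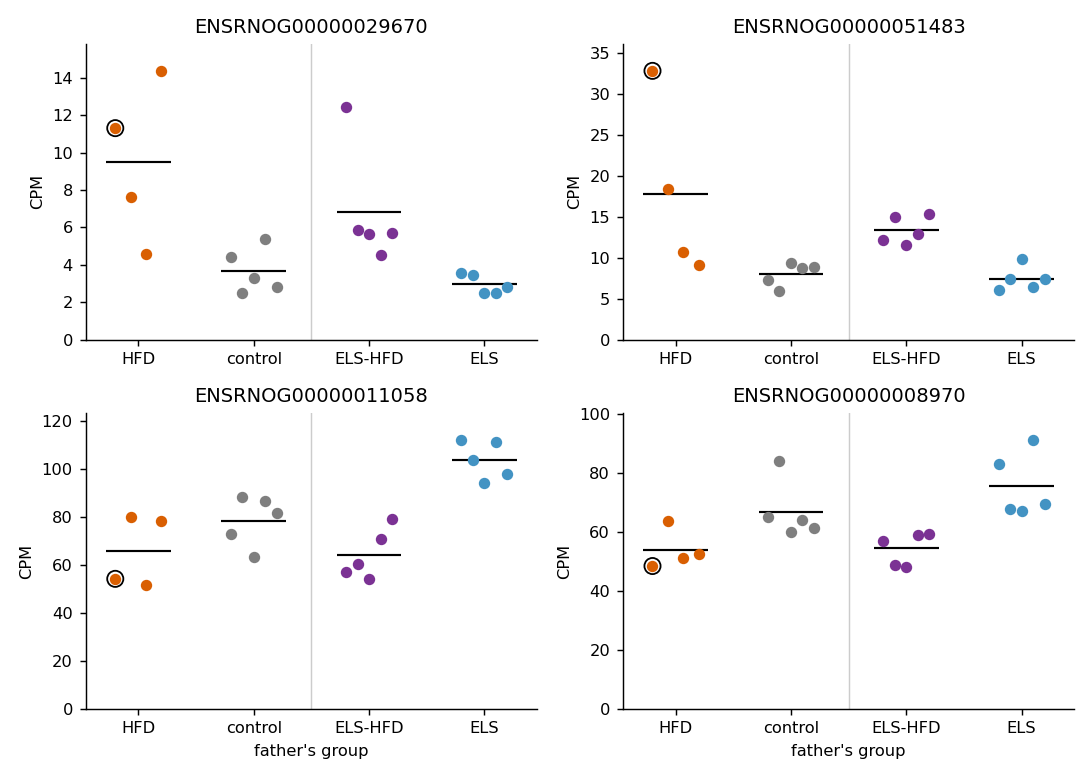
CPM (y axis, from 0) of the 4 printed IDs in each library by the father's group (x axis); bars are group means and the ringed point is HFD replicate 1. In all 4 panels the ELS-HFD and ELS libraries do not overlap, whereas the HFD and control libraries do. The 4 IDs were chosen by a small p in these same libraries. The share of all IDs with no overlap between ELS-HFD and ELS alone was not counted. Over all IDs tested, 19.8% had an edgeR unadjusted p under 0.05 in ELS-HFD against ELS and 7.79% in HFD against control. The contrast is therefore not read as particular to these 4 IDs.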

How the data were processed

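For 19 poly(A)-enriched libraries, each from about 400 ng of RNA per the labels' protocols, the deposited values are raw read counts by Ensembl gene ID. The build was Rnor_6.0 and DESeq2 was among the tools, per the submitters' processing notes. Aligner, annotation release, strand setting and the treatment of reads shared between genes were not given in the sources used here, so overlapping or near-identical genes carry an uncertainty that was not measured. Each column was assigned by the number that its sample's description carries.

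IDs were kept by edgeR's filterByExpr (15372 of 23224 with a count, 15547 without HFD replicate 1), scaled by TMM and tested in 1 quasi-likelihood fit over 4 groups (edgeR 4.0.16, limma 3.58.1, DESeq2 1.42.0, R 4.3.3), with Benjamini-Hochberg adjustment at 0.05. SE was the log2 fold change over the square root of F. Correlations used log2 CPM with a prior count of 2. The procedure was tested on simulated data. Whole-library measures were compared by exact permutation within each kind of early life (31752 relabellings), adjusted over 16 tests; the number of IDs holding 50% of the counts and the number detected at equal depth were added after the data were seen. The p-values reflect only variation among these daughters, which may share fathers or litters. No pair of libraries within a group agreed within sampling noise (chi-square per degree of freedom at least 5.25 over 36 pairs).

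The comparison, the lists and the library left out were chosen with earlier results of these data known. Named genes were to be the 20 most abundant IDs, the 8 higher and 8 lower with the smallest p at 5 CPM or more and the same sign in both differences, and 2 of each list. With no symbols, the first 2 higher and 2 lower are printed by ID and abundant IDs by rank. No sequences are shown, since no ID could be matched to a sequence.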

Additional observations from a re-analysis of the deposited data

Results flagged for a closer look

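Of 48 groups of values examined (whole-library measures, printed IDs and the IDs of abundance rank 1 to 3, in each of the 4 groups), 9 held an extreme library by Dixon's test, where chance gives about 1 in 20. The groups are not independent, since 1 library enters many of them. HFD replicate 1 stood apart from the other HFD libraries with 25.8% of counts on its 10 most abundant IDs, with 34.0% on the 50 IDs of highest mean CPM and in the number of IDs holding 50% of the counts (293). It also stood apart in the IDs of rank 1 (76474 CPM), rank 2 (42881 CPM) and rank 3 (40833 CPM). The smallest HFD library was replicate 4, whose total of 10092297 counts lay apart from the other totals of its group. ELS-HFD replicate 1 was high in ENSRNOG00000029670 (12.4 CPM), and control replicate 2 was high in ENSRNOG00000008970 (84.0 CPM). The labels give no batch or RNA quality value, and the part of either in these values was not tested.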

How the results depend on the processing

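Leaving out each library in turn, IDs called by edgeR numbered 0 to 2 for paternal HFD averaged over early life (2 without HFD replicate 2), 0 for HFD against control, 0 to 2405 for ELS-HFD against ELS (2405 without HFD replicate 1; with ELS-HFD replicate 4 left out, 1) and 0 to 12 for the interaction (12 without ELS replicate 5). IDs at an unadjusted p under 0.05 in the averaged difference numbered 2483 (without HFD replicate 1) to 4849. DESeq2 called 329, 5, 146 and 5 IDs in these 4 comparisons. The remaining alternatives, which were DESeq2 size factors, library totals, no filter, limma-voom, the replicate block and scaling without the 50 most abundant IDs (added after seeing the data), called 0 in each. With 3 libraries left out together (HFD 1, ELS-HFD 2 and ELS-HFD 3), ELS-HFD against ELS had 0 calls, the averaged difference had 1585 IDs at an unadjusted p under 0.05, the median log2 fold change of the 20 most abundant IDs was 0.12, and the share of the 50 most abundant IDs differed by 1.24 points (exact permutation p = 0.0564), and the number of IDs holding 50% of the counts by -45.5 (exact permutation p = 0.0941). No fold change of a printed ID or of ranks 1 to 12, and no whole-library difference, changed sign. With DESeq2, ENSRNOG00000051483, ENSRNOG00000011058 and ENSRNOG00000008970 had adjusted p-values of 0.00357, 0.0124 and 0.0178. DESeq2 gave no adjusted p for ENSRNOG00000029670, whose adjusted p was 0.0571 to 0.434 over its other alternatives. The cause of these changes was not tested. Replicate numbers in the titles are not said to pair animals, and deviations of same-numbered libraries correlated at -0.184 to 0.57 over 9 pairs, so the numbers were not taken as pairs; with the replicate block 3346 IDs were at an unadjusted p under 0.05 in the averaged difference. Alternatives that leave out mitochondrially encoded IDs were not run, since they need symbols. With 4 or 5 libraries a group, the median SE of 0.14 (log2) limits what small differences could be called.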
